A study of Mus musculus with 4 samples.

Results

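The sites described here lie in the transcripts of 10 genes that write, erase or read m6A, the methylation of adenosine at N6 within messenger RNA. They were chosen by name: Mettl3, Mettl14, Wtap, Virma, Rbm15, Rbm15b and Zc3h13 of the methyltransferase complex, the demethylase gene Alkbh5, and the reader genes Ythdf2 and Ythdc1. Of these 10 genes, 4 had at least 1 called site, among 5526 named genes with a site in the whole series. Of 21900 protein-coding genes in RefSeq, expressed here or not, 22% had one. The study used GLORI, a chemical treatment that deaminates adenosine unless it is methylated, so that A remaining in the reads marks m6A, on cells sorted from mouse cortex. There were 2 libraries labelled astrocyte, sorted for the surface antigen ACSA2, and 2 labelled microglia, sorted for Cd11b. Both cell types came from mice of the genotype APOBEC1-YTH, a cytidine deaminase fused to the m6A-binding YTH domain, so neither group came from mice without that genotype. Whether the sorted cells expressed the fusion was not determined. The animals were 10 weeks old when tamoxifen began. The dose was 20 mg/kg, given at intervals of 24 hours over 5 days, and sampling followed 7 days after the last one. The labels do not say which promoter or Cre drives the fusion, nor whether the libraries of a group came from separate animals, so their spread may be technical.

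In this pathway a core of METTL3, the catalytic subunit, and METTL14, which holds the RNA, places the methyl group. WTAP, VIRMA, ZC3H13 and the paralogous adaptors RBM15 and RBM15B make up the regulatory part of the complex and bring it to its target sites. ALKBH5 removes the mark, YTHDF2 binds it in the cytoplasm and promotes decay of the transcript, and YTHDC1 binds it in the nucleus.

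The deposited tables give the bases around each site as a 3-mer, whose middle base is taken here as the site, and these are shown because they are all the sequence the tables hold for these genes. The capital marks the adenosine taken as methylated, read 5′ to 3′ on the strand of the gene.

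Virma, 2 sites: gAc

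Rbm15, 5 sites: gAc

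Rbm15b, site listed in astrocyte 1: gAc

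Rbm15b, site listed in microglia 2: aAc

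Alkbh5, 3 sites: gAc

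The site in Rbm15b in microglia 2 was thus the exception among the 12 listed, with 11 in the 3-mer GAC. Over all 11986 listed sites in named genes GAC made up 66.7% and AAC the rest. The tables write some 3-mers in lower case, the usual sign of masked repeats, and none of the 12 was in lower case, while 94.4% of all sites in named genes were in capitals. Positions below are in the build mm39, where start and end are the same base. The part of the transcript, whether coding sequence, UTR or intron, was not determined here.

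The labels were first checked against markers. Of 24 astrocyte markers, astrocyte 1 listed 20, microglia 2 listed 16 and the other libraries listed 0. Of 24 microglia markers, astrocyte 2 listed 18, microglia 1 listed 16, astrocyte 1 listed 2 and microglia 2 listed 0. The libraries labelled astrocyte 2 and microglia 2 therefore went against their labels. The genes of the sorting antigens, already counted in these lists, gave few sites. Atp1b2, which encodes the ACSA2 protein, was listed with 2 sites in microglia 2 and 1 in astrocyte 1. Itgam, which encodes Cd11b, was listed with 1 in astrocyte 2 and 0 in microglia 1. Of 10 oligodendrocyte markers 8 had a site in astrocyte 1 and 8 in microglia 2, and none in the other libraries. Of 10 neuron markers at most 2 had a site in any library, and of 10 endothelial and mural markers at most 3. The libraries listed between 6343 and 12687 sites, with 1066 to 4790 of them in named genes. Read depth is unknown, so the level of a site has no counting interval, and a site that is not listed can be unmethylated, below the calling threshold or unread. Fewer cells of a type and less RNA per cell cannot be told apart in such bulk libraries.

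Among the 10 regulators, 3 had a site in astrocyte 1 (Virma, Rbm15b and Alkbh5). Astrocyte 2 listed 2 (Rbm15 and Alkbh5), microglia 2 also listed 2 (Rbm15 and Rbm15b) and microglia 1 listed 0. Of all 21900 protein-coding genes in RefSeq, including those these cells do not express, the share with a site was 12.8% in astrocyte 1, 10.8% in microglia 2, 6.87% in astrocyte 2 and 3.07% in microglia 1, and 22% in any library. The order of the libraries was thus nearly the same for the regulators as for all genes, with microglia 1 last in both. A difference of 1 or 2 genes in so short a list is not a result about m6A regulators. The number of listed sites in the regulators was 5 in astrocyte 1, 4 in microglia 2, 3 in astrocyte 2 and 0 in microglia 1. Relative to the library this came to 1.04, 1.06, 1.28 and 0 sites per 1000 sites in named genes. On that scale astrocyte 2, with the fewest sites of the first 3 libraries, stood highest.

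**Figure D1:**
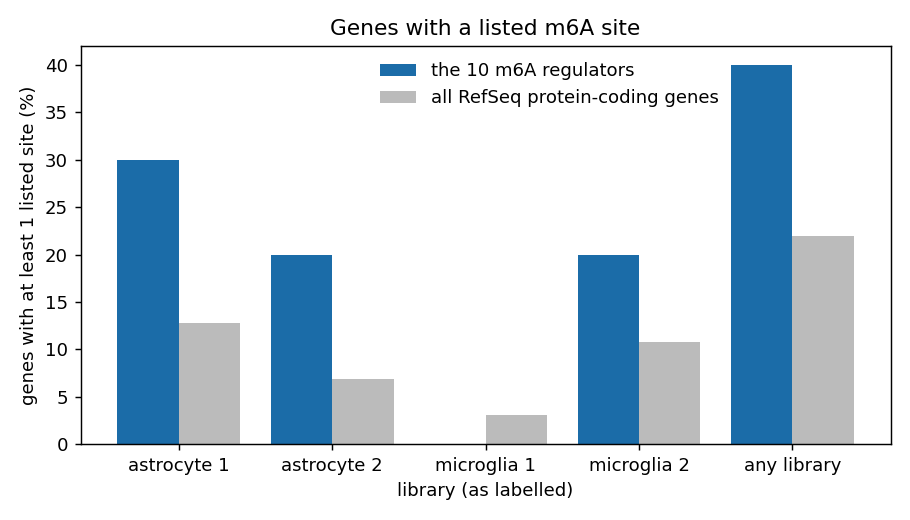
Bars give the percent of genes with at least 1 listed site in each library and in any library, blue for the 10 m6A regulators and grey for all 21900 RefSeq protein-coding genes. The regulators run from 0 of 10 in microglia 1 (grey bar 3.07%) to 3 of 10 in astrocyte 1 (grey bar 12.8%). They reach 4 of 10 over all libraries (grey bar 22%), and 1 gene changes a blue bar by 10 points.

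Compared as labelled, libraries labelled astrocyte had on average 2.5 regulators with a site and those labelled microglia had 1. The difference was 1.5 (exact two-sided permutation p = 0.667, n = 2 libraries against 2). For the number of sites the averages were 4 and 2, a difference of 2 (exact two-sided permutation p = 0.667). The groups overlapped in the number of sites and tied at 2 in the number of genes. The smallest p this design of 2 libraries against 2 allows is 0.333. The replicate 1 libraries alone stood at 3 genes and 5 sites against 0 and 0. The replicate 2 libraries alone stood at 2 genes each and at 3 sites for the library labelled astrocyte against 4. The difference as labelled was smallest without microglia 1, at 0.5 genes and 0 sites. Without astrocyte 1 it was 1 gene and 1 site, without astrocyte 2 it was 2 and 3, and without microglia 2 it was 2.5 and 4. Microglia 1 also had the fewest sites in named genes, 1066. By the marker counts each labelled group held a library of each kind, so these numbers do not compare the cell types.

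Neither gene of the catalytic core had a site. Mettl3 and Mettl14 were absent from all 4 tables, as were Wtap and Zc3h13. The sites in the methyltransferase complex lay in the remaining 3 genes, Virma, Rbm15 and Rbm15b. As 22% of all protein-coding genes, expressed or not, had a site in any library, having none was the more frequent state. The lack of sites in Mettl3 and Mettl14 is thus not a result about the core.

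Virma, the scaffold of the regulatory part, had 2 sites in astrocyte 1 and none in the other libraries. They lay on chromosome 4 (plus strand) at positions 11526839 and 11527086, 247 bases apart, and both were listed at 100%. A listing in astrocyte 1 alone was common, with 1344 others of the 5526 named genes with a site showing it. A level of 100% was also common there, at 27.3% of the sites in named genes of that library.

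Rbm15, an adaptor that binds RNA near target sites and is also known from X inactivation, had the most sites of the 10 genes, with 5, and none in astrocyte 1 or microglia 1. All were on chromosome 3, minus strand. Astrocyte 2 listed 80.0% at position 107238974 and 100% at 107239033. Microglia 2 listed 80.0% at 107238879, 44.4% at 107239127 and 100% at 107239190. Each library thus held a site at 100% and one at 80.0%, but at different bases, and the lowest level was in microglia 2. The libraries were not separated along the gene: both sites of astrocyte 2 fell between sites of microglia 2. The closest sites of different libraries were 94 bases apart.

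These 5 positions spanned 311 bases. Of 120 genes with 5 listed positions over the 4 libraries, Rbm15 had the shortest span, followed by Tgfb1 at 382 bases and Slc6a11 at 581, and the other 119 genes had a median of 16125 bases. Spans are along the genome and include any introns, whose part was not determined. Among 342 genes with 5 or more positions, 2 others held 5 positions within 311 bases: P2ry12 and Son, which like Tgfb1 and Slc6a11 are named here after their values were seen. The closeness of the sites is a description of the listed sites and was compared without a test.

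**Figure D2:**
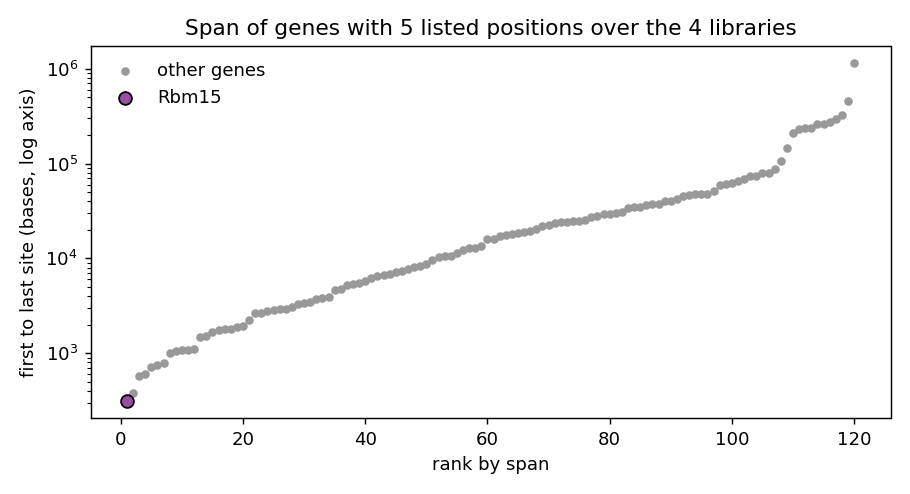
Each point is a gene with 5 listed positions over the 4 libraries, ordered by rank, with the distance from its first to its last position on a log axis in bases. Rbm15 (purple) stands at rank 1 with 311 bases, ahead of Tgfb1 at 382.

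No gene of the series had the same 4 counts of sites as Rbm15. The closest by the sum of absolute differences over the 4 libraries were Atf7ip, a chromatin factor, Pskh1, a kinase gene, and Rassf2, a gene of the Ras association family, each with 3 sites in microglia 2, 2 in astrocyte 2 and, unlike Rbm15, 1 in astrocyte 1. A listing in astrocyte 2 and microglia 2 alone was shown by 163 others of the 5526 named genes with a site. Those libraries differ in the marker sites they hold (0 and 16 of 24 astrocyte markers, 18 and 0 of 24 microglia markers), so Rbm15 was listed in a library of each kind.

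Rbm15b, the paralogue of Rbm15, had 1 site in each of 2 libraries, on chromosome 9, minus strand. Astrocyte 1 listed 71.4% at position 106761919 and microglia 2 listed 31.2% at 106761358, 561 bases away. The library of the higher level was astrocyte 1, but as these are different bases they give no comparison of level. Rbm15 and Rbm15b met in 1 library, microglia 2. The libraries that listed Rbm15b were those with most astrocyte and oligodendrocyte marker sites, and the part of those cells in the listing was not tested. A listing in these 2 libraries alone was shown by 867 others of the 5526 named genes with a site.

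Alkbh5, the demethylase gene, had 3 sites on chromosome 11, plus strand, and was the one regulator listed in both libraries labelled astrocyte and in neither labelled microglia. Astrocyte 1 listed 30.8% at position 60429211 and 80.0% at 60446564, and astrocyte 2 listed 88.2% at 60429749. The lowest and the highest level were thus 538 bases apart and in different libraries, while the outer sites lay 17353 bases apart in 1 library. This listing matches the labels but not the markers, since astrocyte 2 listed 18 of the microglia markers and 0 of the astrocyte ones. It was shared by 225 others of the 5526 named genes with a site. Astrocyte 1 also listed a site outside named genes on the same strand between the outer Alkbh5 sites, at position 60438462 and 86.7%, with the 3-mer AAC. A similar unnamed site lay beside Rbm15 in microglia 2, at position 107233739 of chromosome 3 (minus strand) and 80.0%, 5140 bases from the nearest Rbm15 site. Whether either belongs to the transcript of its neighbour was not determined.

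**Figure D3:**
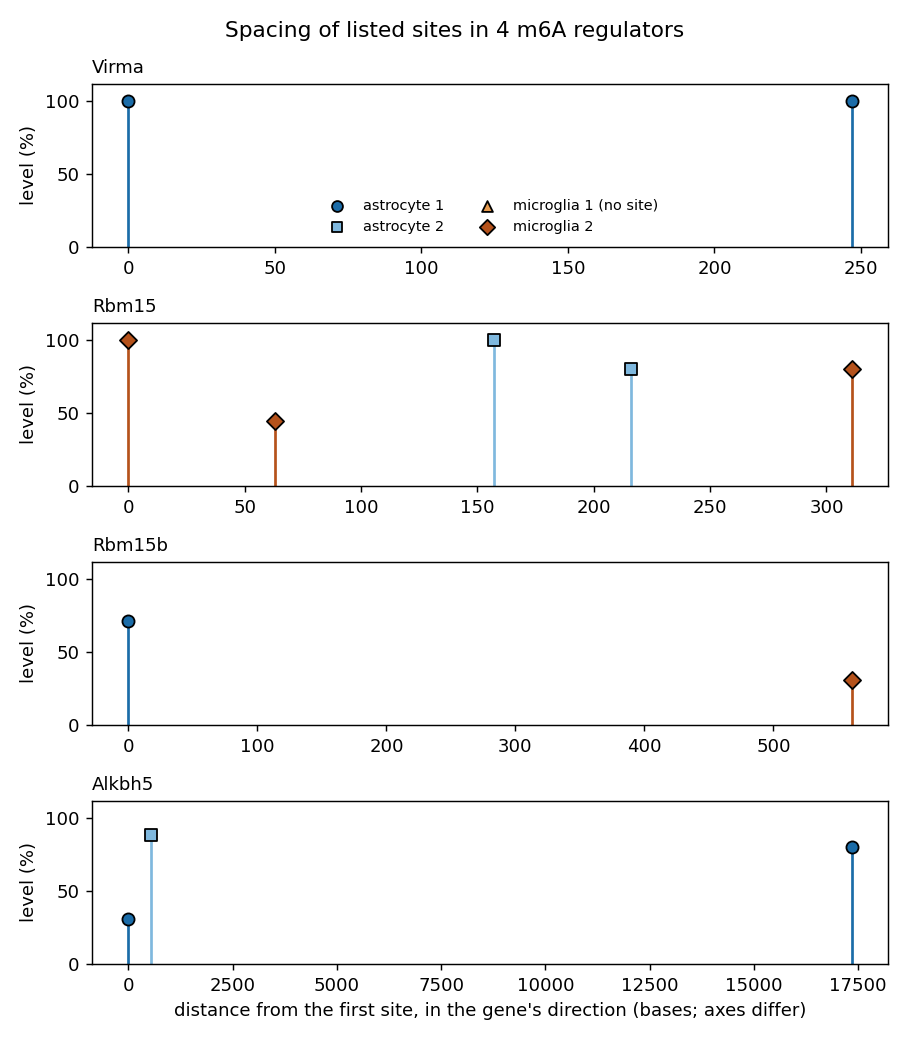
Each stem is a listed site of Virma, Rbm15, Rbm15b or Alkbh5, at its distance in bases from the first site of the gene in the direction of transcription, with its level in percent as height and its library as colour and marker. In Rbm15 the 2 sites of astrocyte 2 stand between those of microglia 2 within 311 bases, and no gene has 2 libraries at the same base.

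Ythdf2 and Ythdc1, the reader genes, had no site in any table. The 6 regulators without a site were therefore Mettl3, Mettl14, Wtap, Zc3h13, Ythdf2 and Ythdc1. Most protein-coding genes, expressed or not, also had none, as 22% had a site in any library. None of 29 older symbols of the 10 genes appeared in the tables either. Whether these transcripts were read deeply enough to call a site is unknown.

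None of the 12 positions was listed by more than 1 library. Among all 10598 positions in named genes, 9.72% were listed by 2 or more libraries. For genes listed in exactly 2 libraries, as Rbm15, Rbm15b and Alkbh5 were, 33.1% of 1544 had at least 1 base in common. For the library pairs concerned this share was 22.6% of 164 genes for astrocyte 2 with microglia 2 (Rbm15), 31.7% of 868 for astrocyte 1 with microglia 2 (Rbm15b) and 20.4% of 226 for astrocyte 1 with astrocyte 2 (Alkbh5). Having no base in common was thus the more frequent state in each of these pairs, and the regulators did as most genes do. In the 1033 genes of 2 libraries without a common base, the closest sites of different libraries had a median distance of 1097 bases. Rbm15 at 94, Alkbh5 at 538 and Rbm15b at 561 bases were all below that median, and 10.9%, 39.1% and 39.6% of those genes were closer.

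The levels of the 12 sites ran from 30.8% to 100%, with a median of 80.0% against 66.7% over all sites in named genes. In astrocyte 1 the 5 sites had a median of 80.0%, against 66.7% over 4790 sites. In astrocyte 2 the 3 sites had a median of 88.2%, against 80.0% over 2348. In microglia 2 the 4 sites had a median of 62.2%, against 58.9% over 3782. The medians of the regulators were the higher in each of these libraries, over 3 to 5 sites each. The spread among them was wide. A share of 12.3% of the sites of astrocyte 1 stood below the lower Alkbh5 site and 14.3% of those of microglia 2 stood below the Rbm15b site. By contrast 4 of the 12 were at 100%, a level held by 28.5% of all sites in named genes.

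**Figure D4:**
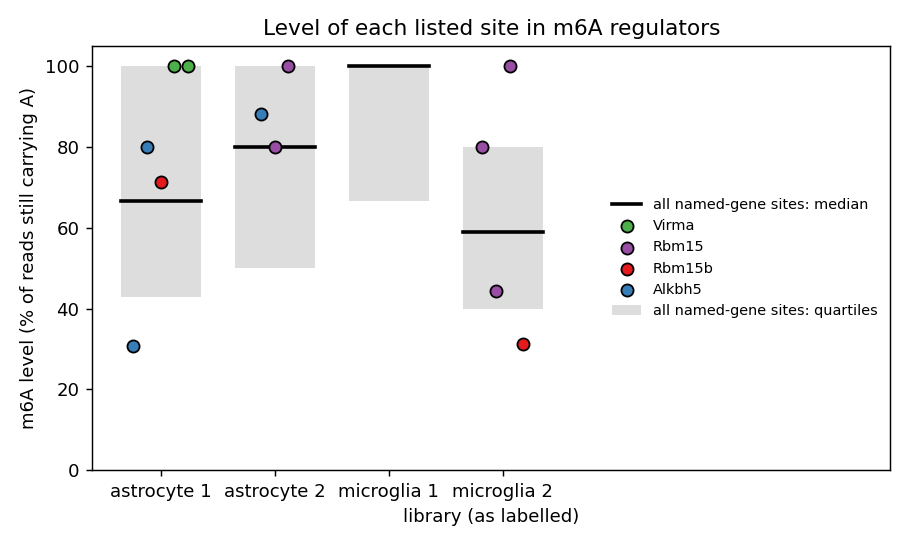
Points are the listed sites of the regulators by library and gene, with the level in percent of reads still carrying A. Grey boxes span the lower to the upper quartile and black lines mark the median of all sites in named genes, which is 66.7%, 80.0%, 100% and 58.9% from left to right. Microglia 1 has no point, and the lowest points are Alkbh5 in astrocyte 1 and Rbm15b in microglia 2.

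The test of level between the labelled groups could not be applied to any regulator. It needs a site listed in all 4 libraries, of which there were 1100, and 0 of the 12 positions were among them. Most of the 1100 lay outside named genes, with 83 inside. Of the 1100 sites, 354 did not tie within both groups, 48 of them in named genes. Over these 354 sites limma called 0 at a Benjamini-Hochberg adjusted p under 0.05 (0% called). The smallest adjusted p from limma was 0.457, and 16 of the sites had an unadjusted p under 0.05. By the marker counts each labelled group held a library of each kind, so this fit compares mixed groups and says nothing on a difference between the cell types.

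The pathway holds further genes, and 13 of 25 others had a site in at least 1 library: astrocyte 1 listed 8, astrocyte 2 and microglia 2 listed 5 each, and microglia 1 listed 1. Over all protein-coding genes, expressed or not, the shares were 22% in any library, and by library 12.8% (astrocyte 1), 6.87% (astrocyte 2), 10.8% (microglia 2) and 3.07% (microglia 1). Of the further writer genes Cbll1, a partner of the complex, had 1 site at 50% in microglia 2, and Mettl16, Mettl5, Trmt112, Zcchc4 and Pcif1 had none. Fto, which encodes the other known demethylase, had 2 sites 324 bases apart on chromosome 8, plus strand, at 33.3% (position 92135970) and 90.9% (92136294), both in astrocyte 1.

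Among readers, Ythdf1 and Ythdf3, the paralogues of Ythdf2, were listed where Ythdf2 was not. Ythdf1 stood at 85.7% in astrocyte 1 and at 44.4% in microglia 2, at bases 7577 apart. Ythdf3 stood at 100% in astrocyte 2 and at 60.0% in microglia 2, at bases 306 apart, and had the same pair of libraries as Rbm15. Ythdc2 had no site, like Ythdc1.

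Other RNA-binding proteins linked to m6A were also listed. Prrc2a, a proposed reader, had the most with 4 sites, at 27.8%, 42.9% and 50% in astrocyte 1 and 83.3% in astrocyte 2. Fmr1, the fragile X gene, had a site at 100% in each library labelled astrocyte, 24480 bases apart. Elavl1, which encodes the RNA stabiliser HuR, was the one pathway gene listed in microglia 1, at 87.5%. It also held the one position of the 22 in this list that 2 libraries shared, position 4337001 of chromosome 8 (minus strand), at 100% in both astrocyte 1 and microglia 2. Hnrnpa2b1, a nuclear RNA-binding protein gene, had sites at 44.4% and 87.5%, Igf2bp1, a reader gene, had one at 100% whose 3-mer is in lower case, and Nxf1, the messenger RNA export receptor gene, one at 18.8%, all in astrocyte 1. Hnrnpc at 100% and Eif3a at 60.0% were listed in astrocyte 2, and G3bp1, a stress granule gene, at 60.0% in microglia 2. In all, 12 of the 25 genes had no site, which includes those already named as having none.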

How the data were processed

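The 4 deposited tables, 1 per library, have no header and 7 columns, which place each site (chromosome, start, end, strand), name its gene and give its level and 3-mer. The authors deposited the level as a fraction of reads in which A remained, printed here as a percent. The series' design text names GLORI-Tools for calling, and the submitters' processing notes list STAR and mm39. Calling thresholds and tool versions were not given in the sources used here. Gene names are those in the tables, and all 10 genes matched a symbol in RefSeq (GRCm38.p6), which was used for gene classes and older symbols. Sites were matched by chromosome, position (the end column) and strand.

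The genes, lists and tests were chosen with earlier results of these data known. All 10 regulators are named, with each other gene of a fixed pathway list that had a site and, for the regulator with most sites, the 3 genes nearest in counts of sites. Numbers per library were compared by exact permutation over libraries. The planned test on read counts (at least 20 reads) could not be used, as the tables hold no counts. In its place limma 3.58.1 (R 4.3.3) was fitted, as set out for that case, to log2 odds of the level, limited to 0.01 to 0.99. A run on simulated log2 odds used large shifts, low noise and a far wider limit. It therefore does not show what the fit could detect in these levels. Other steps used Python 3.11.15 and pandas 2.3.3. Alternatives covered level minimum, scaling, naming, replicate block, left-out libraries and the scale of the fit.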

Additional observations from a re-analysis of the deposited data

How the results depend on the processing

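The number of regulators with a site stayed higher on average for the libraries labelled astrocyte, by 0.5 to 2.5, when each library was left out, and the difference was 0 in the replicate 2 libraries alone. The number of sites in regulators differed by 0 to 4 when each library was left out (0 without microglia 1, 4 without microglia 2) and by -1 in the replicate 2 libraries alone, where the library labelled microglia had more; the cause was not tested. With sites below a level of 100% alone, and with scaling per 1000, both differences kept their direction. A minimum level of 20% and the older symbols changed nothing by construction, since the lowest level of a regulator was 30.8% and 0 older symbols were listed. The labels do not say that a replicate number marks a shared animal or day, and the deviations of same-numbered libraries from the labelled group means had r = -0.07 over 354 sites. As the labelled groups mix libraries of both kinds by their markers, this r does not show whether a replicate effect is shared. A replicate block cannot move the mean differences in this balanced design, which were 1.5 genes and 2 sites (exact sign-flip permutation p = 1 for both). With 2 replicate numbers a sign-flip has too few arrangements to give a small p, so it cannot decide on a difference. With the block limma called 0 sites, as under each other alternative run. Neither matching within 5 bases nor the minimum of 20% could alter the 0 shared positions, as the closest regulator sites of different libraries were 94 bases apart. The alternative with another coverage minimum was not run because the tables hold no coverage. Unknown depth limits every statement on a site that is not listed.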
